A study of Mus musculus with 6 samples.

Results

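Ribosome biogenesis was examined through 37 genes, namely Myc and 36 genes for nucleolar assembly factors, small nucleolar ribonucleoproteins (snoRNPs) and RNA polymerase I. The members were chosen by name, with earlier results of these data known, from the 54532 gene rows of the deposited expression table. All 37 were found, and 37 of 37 were among the 12681 genes with a mean expression of at least 0.5 FPKM, over which every test was made. FPKM are fragments scaled to gene length and library size. The library sizes here matched median-of-ratios factors, which set the typical gene equal across samples, and not the read totals. For control replicate 3 the size was 19655718, against 18792236 recovered reads. A value is therefore relative to the other genes, and total RNA per cell was not measured. In bulk RNA, fewer cells of a type and less RNA per cell cannot be told apart.

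The cells were MC3T3-E1, a mouse pre-osteoblast line that deposits mineral when induced. Both groups were kept in osteogenic medium with β-glycerophosphate, ascorbic acid and dexamethasone. The control group had 3 samples in this medium alone, and the metformin group had 3 samples that also received 0.2 mM metformin, with RNA taken after 3 days. Dose and time are from the published text, since the labels do not give them. The comparison asked which transcripts differed when metformin, a biguanide used to treat diabetes, was added during induction, in 1 cell line and without an uninduced group.

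Ribosomes are built in the nucleolus. RNA polymerase I transcribes the ribosomal RNA precursor, box C/D and box H/ACA snoRNPs guide its methylation and pseudouridylation, and assembly factors cleave and fold it into the small and the large subunit. Myc is a transcription factor that binds E boxes together with Max and is known as an activator of many genes of this pathway. Osteoblasts make large amounts of matrix protein, and growing pre-osteoblasts need many ribosomes.

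The promoters were searched for the E box because it is the DNA element that Myc and Max bind. RefSeq windows on GRCm38.p6, from 250 bases before to 50 after the start, matched 31 of 37 members by symbol, and Myc, Npm1, Bop1, Fbl, Rrp12 and Rrs1 had no entry. The palindrome CACGTG was held by 6 of 31 member genes (19.4%), against 12.0% of the 8967 tested genes with a window. Counted by window, since some genes have several, it stood in 6 of 38 member windows (15.8%). It stood in 7.15% of all 32851 windows, which include those of genes not tested, so this background is unlike the one by gene. The 6 member windows were those of Mybbp1a, Nop2, Pes1, Rrn3, Tsr1 and Wdr43. For Rrn3, the factor that brings RNA polymerase I to its promoter, 2 copies began at positions -215 and -48 from the start. The GC box GGGCGG, searched on both strands, stood in 21 of 31 members (67.7%) and in 70.6% of tested genes, and the ETS motif CCGGAAG in 11 of 31 (35.5%) and in 21.4%. A match is a run of letters in this window and says nothing of binding. The 250 bases before the start are shown, 5′ to 3′ on the gene's strand, for Rrn3 and Nop2, which hold E boxes (capitals), and for Ncl, a gene that rose with metformin and holds none. They lie at chr16:13780449-13780698 (plus strand), chr6:125131633-125131882 (plus strand) and chr1:86359456-86359705 (minus strand).
Rrn3: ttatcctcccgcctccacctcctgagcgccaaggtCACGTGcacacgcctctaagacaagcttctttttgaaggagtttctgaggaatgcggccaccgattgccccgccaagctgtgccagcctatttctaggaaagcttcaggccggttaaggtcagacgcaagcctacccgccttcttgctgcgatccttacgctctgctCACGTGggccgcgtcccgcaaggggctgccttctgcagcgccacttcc
Nop2: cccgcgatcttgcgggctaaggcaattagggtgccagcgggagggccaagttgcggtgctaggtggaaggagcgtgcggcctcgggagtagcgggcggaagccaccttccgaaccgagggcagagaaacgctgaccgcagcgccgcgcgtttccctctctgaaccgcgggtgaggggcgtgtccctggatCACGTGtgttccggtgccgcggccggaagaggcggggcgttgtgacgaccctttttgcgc
Ncl: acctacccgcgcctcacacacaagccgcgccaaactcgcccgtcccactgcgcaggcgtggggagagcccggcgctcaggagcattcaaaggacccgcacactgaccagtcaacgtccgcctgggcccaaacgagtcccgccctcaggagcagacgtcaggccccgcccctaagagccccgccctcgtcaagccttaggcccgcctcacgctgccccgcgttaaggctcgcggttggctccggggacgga

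The samples held 18399861 to 20652437 recovered reads in control and 19256672 to 22111790 with metformin, and members had 133 to 9583 reads in a sample. Control replicate 1 stood apart: across genes its log2 values correlated with those of the other controls at 0.96 and 0.952, against 0.988 between those 2 and 0.992 within metformin. Mitochondrial transcripts took 6.36 to 10.01% of reads in control and 2.72 to 3.16% with metformin. Of the osteoblast markers, Col1a1 and Col1a2 rose and Ibsp and Spp1 fell among 9 tested, with a median log2 fold change of -0.18. Without metformin replicate 1, 2 or 3 the count higher was 0, 0 and 1, and the count lower was 2 each time. With no filter on low values 0 were higher and 1 lower. Their summed level was 10020 to 11770 FPKM in control and 6800 to 7194 FPKM with metformin. Marker sums of other cell types were low in control and metformin: 1.66 to 3.18 and 1.89 to 2.31 FPKM for adipocytes, 1.97 to 2.18 and 1.12 to 1.35 FPKM for macrophages and blood, 1.20 to 1.87 and 2.07 to 2.41 FPKM for muscle, and 0.059 to 0.106 and 0.024 to 0.121 FPKM for endothelium. The chondrocyte sum was higher, at 26.6 to 39.9 FPKM in control and 28.7 to 30.7 FPKM with metformin. Myod1, Myog, Cidec and Hbb-bs had 0 reads in every sample. The part of these cell types in the results was not tested. Of the members, 18 overlap another gene, 14 of them on the other strand, and 7 share near-identical transcript sequence with another gene. For Tsr1 that gene, Srr, is also the one it overlaps. The values of these members carry that uncertainty.

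Myc, Ncl and Npm1 rose with metformin, and none of the 37 members fell at an adjusted p under 0.05 by limma-trend on log2(FPKM + 1). Among all tested genes 1670 rose (13.2%) and 1177 fell (9.28%), and the members' shares were not above these. At an unadjusted p under 0.05, 8 members were higher and 3 were lower, against 19.3% and 16.5% of all tested genes. A voom fit on the recovered reads called 3 higher and 1 lower, the latter Polr1c, with background shares of 14.0% and 9.75%. The median log2 fold change was 0.081 for members and 0.0053 for all tested genes. All metformin samples lay above all controls for 8 members (Myc, Rrn3, Nop56, Nop58, Dkc1, Ncl, Npm1 and Nolc1) and below them for 6 (Polr1b, Polr1c, Gnl3, Nop14, Ddx10 and Nip7), against 23.6% and 20.5% of all tested genes. The other 23 overlapped.

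**Figure D1:**
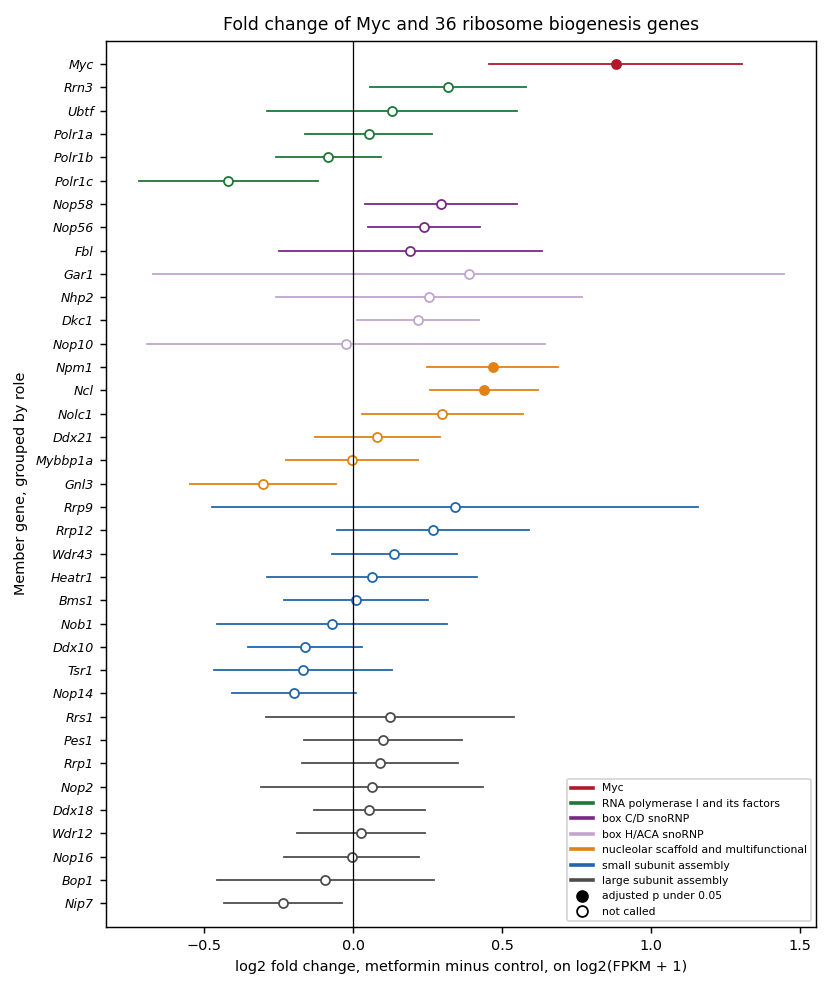
Log2 fold change of each of the 37 members, metformin against control, on the log2(FPKM + 1) scale with its 95% confidence interval, grouped by role. Myc, Npm1 and Ncl are the 3 called genes, and most other intervals include 0.

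Fewer calls were made without a metformin sample, among members and among all genes. Leaving out metformin replicate 1, 2 or 3 left 0, 1 and 1 members higher and 7.4%, 7.44% and 7.77% of all tested genes. The log2 fold changes in these fits were 0.82 to 0.93 for Myc, 0.43 to 0.45 for Ncl and 0.46 to 0.48 for Npm1. Leaving out control replicate 1 gave 7 higher and 5 lower and moved the members' median to -0.011, with background shares of 23.4% and 20.4%. The 7 were Myc, Ncl, Npm1, Rrn3, Nop56, Nop58 and Nolc1, and the 5 were Polr1c, Nop10, Nob1, Gnl3 and Nip7. For the 34 members not called with all 6 samples, fold changes ran from -0.42 to 0.39 on the log2 scale, the 95% interval stayed within 0.5 of 0 for 21, and its upper limit was under Myc's log2 fold change for 32.

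**Figure D2:**
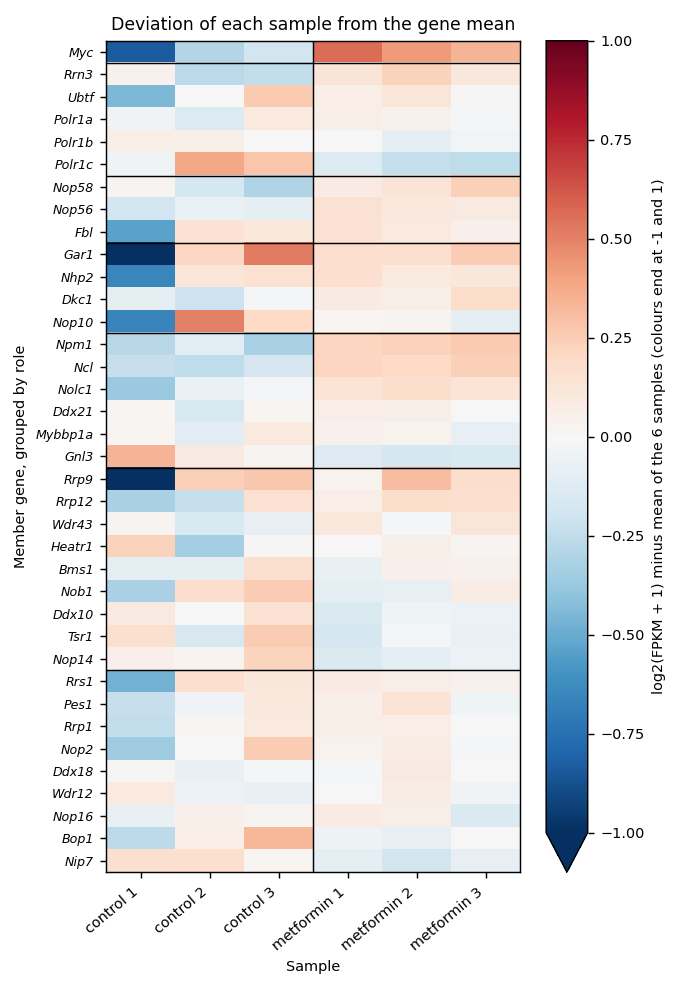
Deviation of each member's log2(FPKM + 1) from its mean over the 6 samples, one column per sample and one row per gene grouped by role. Control replicate 1 differs from the other controls in both directions, with its deepest values for Gar1 and Rrp9, and the metformin columns resemble one another.

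Myc (ENSMUSG00000022346, chr15:61985391-61990374 on GRCm38) had the largest change of the members. Its level was 28.0, 41.1 and 44.3 FPKM in control and 75.0, 68.3 and 64.6 FPKM with metformin. The lowest metformin sample lay above the highest control, and control replicate 1 was the lowest of all. The means were 37.8 ± 8.66 FPKM (SD, n = 3) and 69.3 ± 5.26 FPKM (SD, n = 3), a ratio of 1.83. The log2 fold change was 0.88 (SE 0.18, 95% interval 0.46 to 1.30), with an adjusted p of 0.0144 by limma-trend. Without control replicate 1 it was 0.68 (adjusted p = 0.000958), and without metformin replicate 1 or 2 the adjusted p was 0.0669 or 0.0599.

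The nucleolar scaffold genes held the other calls. Nucleolin (Ncl, ENSMUSG00000026234, chr1:86344719-86359400) is an abundant RNA-binding protein of the dense nucleolus, and nucleophosmin (Npm1, ENSMUSG00000057113, chr11:33152287-33163206) is the histone and ribosomal protein chaperone of its outer layer. Ncl stood at 31.7, 31.2 and 33.1 FPKM in control and at 43.7, 43.2 and 44.3 FPKM with metformin. Both groups were tight and far apart. Its mean went from 32.0 ± 0.997 to 43.7 ± 0.578 FPKM (SD, n = 3 each), a ratio of 1.37 and a log2 fold change of 0.44 (SE 0.08, 95% interval 0.26 to 0.62; limma-trend adjusted p = 0.00797). The call was lost without metformin replicate 1 or 3 (adjusted p = 0.0558 and 0.0555). The gene also spans Snora75, Snord82, Mir3535 and Gm24148, whose reads could be counted with it.

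Npm1 was the most abundant member, at 75.6, 85.4 and 73.1 FPKM in control and 106.7, 107.7 and 110.0 FPKM with metformin. The groups did not overlap. Its mean went from 78.0 ± 6.5 to 108 ± 1.69 FPKM (SD, n = 3 each), a ratio of 1.39 and a log2 fold change of 0.47 (SE 0.09, 95% interval 0.25 to 0.69; limma-trend adjusted p = 0.0132). The adjusted p was 0.07, 0.0702 and 0.0744 without each metformin replicate in turn. Its level is uncertain in that 4 other genes, with 20.5 FPKM in sum, have transcripts at least 95% identical to it over 200 bases or more.

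**Figure D3:**
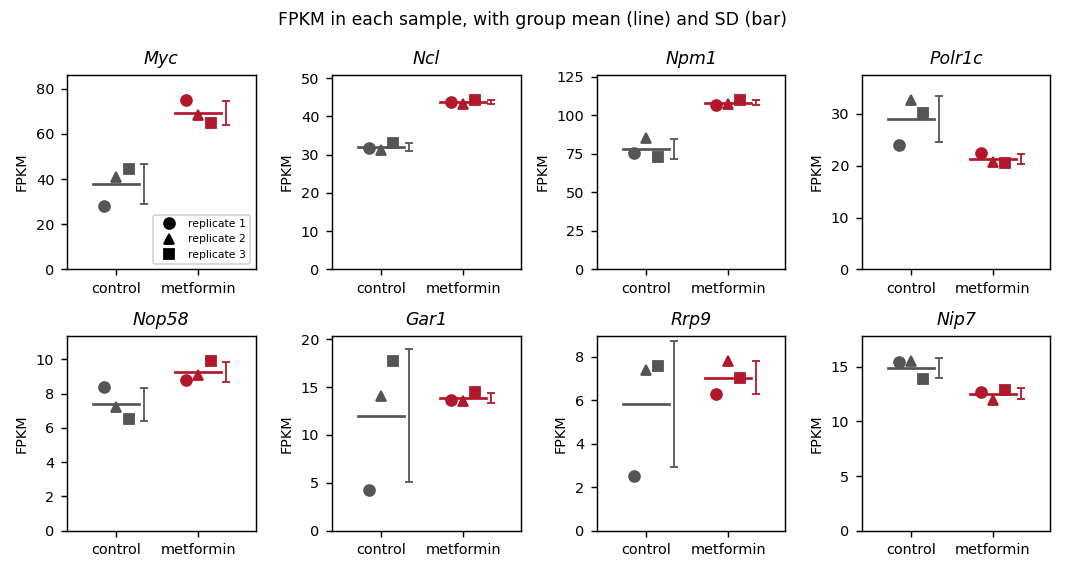
FPKM of each sample for genes named in the text, with samples as points (shape marks the replicate), group means as lines and SD as bars (n = 3 per group), each panel on its own linear axis from 0. The groups are separate for Myc, Ncl, Npm1 and Polr1c and overlap for Gar1 and Rrp9, where control replicate 1 is far below the rest.

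The 4 remaining scaffold and multifunctional genes did not pass the test. Nolc1, a chaperone of snoRNPs in the nucleolus, was at 18.4, 23.0 and 24.0 FPKM in control and 26.6, 27.4 and 26.7 FPKM with metformin (log2 fold change 0.30, limma-trend adjusted p = 0.108). Gnl3, or nucleostemin, a GTP-binding protein of proliferating cells, was at 11.8, 9.74 and 9.31 FPKM in control and 8.24, 7.98 and 8.11 FPKM with metformin (-0.30, limma-trend adjusted p = 0.0791). All metformin samples lay on one side of the controls for each, above for Nolc1 and below for Gnl3. Ddx21, an RNA helicase, and Mybbp1a had log2 fold changes of 0.08 and -0.00. The summed level of the 6 scaffold genes was 200.8 to 205.7 FPKM in control and 249.6 to 250.8 FPKM with metformin. Most of this difference lay in the called genes Ncl and Npm1, whose means went from 32.0 to 43.7 and from 78.0 to 108 FPKM.

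None of the 5 RNA polymerase I genes passed the test, and they did not share a direction. Polr1c (ENSMUSG00000067148, chr17:46243920-46248054), a subunit that RNA polymerases I and III share, stood at 24.0, 32.6 and 30.2 FPKM in control and at 22.4, 20.7 and 20.6 FPKM with metformin. Every metformin sample lay below every control. The means were 28.9 ± 4.48 and 21.2 ± 0.993 FPKM (SD, n = 3 each), a ratio of 0.734 and a log2 fold change of -0.42 (SE 0.13, 95% interval -0.72 to -0.12; limma-trend adjusted p = 0.0573). It passed in the voom fit (adjusted p = 0.0474) and without control replicate 1 (adjusted p = 0.00112). Rrn3 (ENSMUSG00000022682, chr16:13780708-13814839), whose promoter is printed above, was at 14.4, 11.4 and 11.6 FPKM in control and 15.3, 16.5 and 15.2 FPKM with metformin. The metformin samples were all higher, with a log2 fold change of 0.32 (SE 0.11, 95% interval 0.06 to 0.58; limma-trend adjusted p = 0.0831). The largest subunits, Polr1a and Polr1b, gave 0.05 and -0.08, and Ubtf, which binds the ribosomal DNA promoter, gave 0.13. The sum of the 5 was 70.3 to 86.4 FPKM in control and 74.5 to 78.2 FPKM with metformin.

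The snoRNP proteins included no called gene, and their medians were 0.24 on the log2 scale for each class. Among the box C/D proteins, Nop58 (ENSMUSG00000026020, chr1:59684971-59719044), a core protein that holds the guide RNA, was at 8.41, 7.19 and 6.51 FPKM in control and 8.76, 9.08 and 9.89 FPKM with metformin. The groups were separate but close, with means of 7.37 ± 0.961 and 9.24 ± 0.579 FPKM (SD, n = 3 each) and a log2 fold change of 0.30 (SE 0.11, 95% interval 0.04 to 0.55; limma-trend adjusted p = 0.0958). Its partner Nop56 was at 19.1, 21.0 and 20.5 FPKM against 24.6, 23.8 and 23.5 FPKM (0.24, limma-trend adjusted p = 0.0765). Both genes also contain snoRNA genes. Fibrillarin (Fbl), the methyltransferase of the class, was at 7.36, 12.4 and 12.0 FPKM in control and 12.4, 11.9 and 11.5 FPKM with metformin, so that only control replicate 1 was low. The 3 genes summed to 34.9 to 40.5 FPKM in control and 44.8 to 45.8 FPKM with metformin.

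The box H/ACA proteins turned on control replicate 1. Gar1 (ENSMUSG00000028010, chr3:129824912-129831396) was at 4.25, 14.0 and 17.7 FPKM in control and at 13.6, 13.6 and 14.5 FPKM with metformin. Its means were 12.0 ± 6.95 and 13.9 ± 0.513 FPKM (SD, n = 3 each), with a log2 fold change of 0.39 (SE 0.44, 95% interval -0.67 to 1.45; limma-trend adjusted p = 0.58) that became -0.17 without that sample. Nop10 was at 23.2, 53.1 and 42.8 FPKM against 37.8, 38.1 and 35.0 FPKM, and Nhp2 at 23.8, 41.3 and 42.1 FPKM against 42.8, 40.7 and 41.0 FPKM. Each of these 3 genes had its lowest value in control replicate 1. Dkc1, the pseudouridine synthase, did not have this pattern, at 8.23, 7.57 and 8.73 FPKM in control and 9.45, 9.31 and 10.2 FPKM with metformin (log2 fold change 0.22, 95% interval 0.01 to 0.42; limma-trend adjusted p = 0.12).

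For small subunit assembly, 0 of 9 genes passed limma-trend and 0 had an unadjusted p under 0.05, and voom called 0. The median log2 fold change was 0.011 and the range -0.20 to 0.34. Rrp9 (ENSMUSG00000041506, chr9:106475963-106485424), a protein of the U3 snoRNP, was the farthest from 0, at 2.50, 7.40 and 7.58 FPKM in control and 6.31, 7.79 and 7.02 FPKM with metformin. Control replicate 1 was again the low sample, and the log2 fold change of 0.34 (SE 0.34, 95% interval -0.47 to 1.16; limma-trend adjusted p = 0.519) became -0.08 without it. The gene also overlaps Parp3. Rrp12, an export factor, gave 0.27, and the early-acting Wdr43 and Heatr1 gave 0.14 and 0.06. The GTPase Bms1 gave 0.01, Nob1, which makes the last cut of 18S RNA, -0.07, and Ddx10, Tsr1 and Nop14 -0.16, -0.17 and -0.20. Of these only Rrp12 was called when 1 sample other than control replicate 1 was left out (without control replicate 3, 0.41, limma-trend adjusted p = 0.0263).

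For large subunit assembly, 0 of 9 genes passed limma-trend, 1 was lower at an unadjusted p under 0.05, and voom called 0. The median log2 fold change was 0.055 and the range -0.23 to 0.12. Nip7 (ENSMUSG00000031917, chr8:107056877-107060931), which binds precursor ribosomal RNA, was at 15.4, 15.5 and 13.8 FPKM in control and 12.7, 11.9 and 12.9 FPKM with metformin. The metformin samples were all lower, with means of 14.9 ± 0.918 and 12.5 ± 0.504 FPKM (SD, n = 3 each) and a log2 fold change of -0.23 (SE 0.08, 95% interval -0.43 to -0.04; limma-trend adjusted p = 0.0913). Pes1, Bop1 and Wdr12, which form the PeBoW complex, gave 0.10, -0.09 and 0.03. The level of Wdr12 is uncertain, since genes with near-identical stretches sum to 12.83 FPKM. Its own means were 2.245 FPKM in control and 2.302 FPKM with metformin. Rrs1, Rrp1, the methyltransferase Nop2, Ddx18 and Nop16 gave 0.12, 0.09, 0.06, 0.05 and -0.01.

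Much of the spread among controls came from control replicate 1. It was the lowest control for 19 of 37 members and the highest for 8, against the lowest for 40.2% of all tested genes. Its median difference from the mean of the other controls was -0.112 for members and 0.0227 for all tested genes on the log2(FPKM + 1) scale. Over the 20 members whose transcript had a GC content of at least 50% the median was -0.42, and over the other 17 it was 0.066. Spearman's rho between this difference and GC content was -0.733 over the 37 members and -0.668 over 12663 genes, all from the same library, and is a description across genes. Nop10 was low there (-1.01) with a GC content of 46.5%. The SD of log2 values was larger in control than with metformin for 34 of 37 members, with medians of 0.169 and 0.0544, against 0.191 and 0.0657 over all tested genes. A GC correction gave 5 members higher and 4 lower, with background shares of 16.3% and 19.2%.

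**Figure D4:**
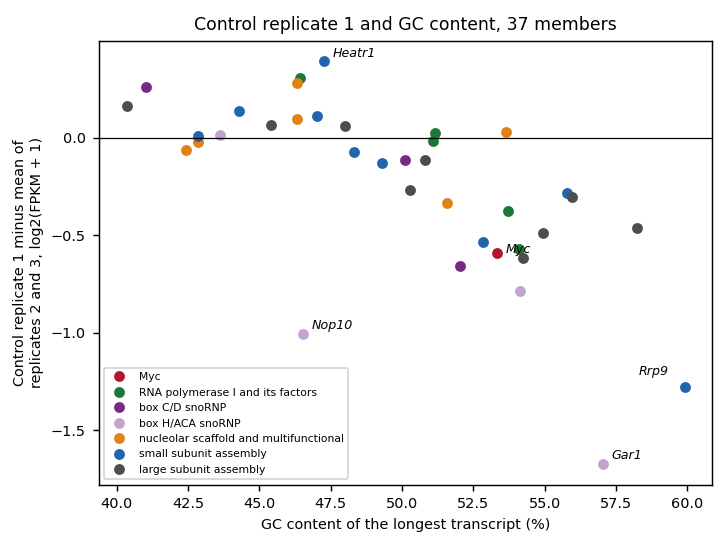
Difference of control replicate 1 from the mean of control replicates 2 and 3, in log2(FPKM + 1), against the GC content (%) of the longest transcript, one point per member coloured by role. The values fall with GC content, and Gar1 (-1.68) and Rrp9 (-1.28) are lowest.

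Beyond the members, a list of 92 further ribosome biogenesis genes was counted, of which 91 were tested. By limma-trend 2 rose and 3 fell (2.2% and 3.3%), against 13.2% and 9.28% of all tested genes. At an unadjusted p under 0.05, 25 passed, 9 higher and 16 lower, against 19.3% and 16.5%. The metformin samples lay above all controls for 14 and below for 21, against 23.6% and 20.5%. The median log2 fold change was -0.044. Gnl2, a GTPase that acts on the large subunit precursor, was at 15.4, 17.7 and 17.8 FPKM in control and 10.7, 11.4 and 10.8 FPKM with metformin. It fell from 17.0 ± 1.39 to 11.0 ± 0.394 FPKM (SD, n = 3 each), a log2 fold change of -0.58 (limma-trend adjusted p = 0.00506), and passed in 6 of 6 fits that left out 1 sample. Rcl1, which acts in cleavage of the small subunit precursor, fell from 29.4 ± 0.358 to 21.1 ± 0.827 FPKM (SD, n = 3 each; -0.46, limma-trend adjusted p = 0.00674), and the RNA helicase Ddx47 fell by 0.26 on the log2 scale (limma-trend adjusted p = 0.0459). Nsa2, a large subunit factor, rose from 14.4 ± 2.07 to 21.0 ± 0.897 FPKM (SD, n = 3 each; 0.52, limma-trend adjusted p = 0.0205), and Mrto4, which assembles the ribosomal stalk, rose by 0.42 (limma-trend adjusted p = 0.0497). Nsa2 and Mrto4 are uncertain because they share near-identical sequence with other genes, which sum to 0.407 and 2.39 FPKM. Gnl2 overlaps Dnali1. Nsa2 lost the call without any 1 of the metformin replicates, and Rcl1 without metformin replicate 1 (adjusted p = 0.0527). Mrto4 and Ddx47 kept it only without control replicate 1. Without that control, 11 of the 91 rose and 19 fell (12.1% and 20.9%), against 23.4% and 20.4% of all tested genes. Without control replicate 2 the counts were 1 and 2, against 9.9% and 5.84%. They were 0 and 2 without any 1 of the metformin replicates, against 7.4 to 7.77% and 3.9 to 4.2%. None of the 10 other RNA polymerase I genes passed limma-trend or voom, and 2 were lower at an unadjusted p under 0.05.

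Of 12 listed partners and antagonists of Myc 10 were tested, with 1 higher and 2 lower, against 13.2% and 9.28% of all tested genes. Their median log2 fold change was -0.27. Mycn had 0 reads and Mycl at most 3 in a sample. Mxd3, a protein that pairs with Max and represses at E boxes, was at 0.601, 1.35 and 0.88 FPKM in control and 7.40, 7.25 and 8.04 FPKM with metformin. Its mean rose from 0.943 ± 0.378 to 7.56 ± 0.42 FPKM (SD, n = 3 each), a ratio of 8.02 and a log2 fold change of 2.16 on the log2(FPKM + 1) scale (limma-trend adjusted p = 0.000206), and the call held in 6 of 6 fits without 1 sample. It overlaps Prelid1 on the other strand, and whether counting used strand is not stated. Its relatives went the other way: Mxi1 fell by 0.39 and Mxd1 fell by 0.35 on the log2 scale (limma-trend adjusted p = 0.017 and 0.0405). Mxi1 kept the call in 2 of 6 such fits and Mxd1 only without control replicate 1. Max itself was at 12.8, 16.1 and 17.5 FPKM in control and 13.2, 13.0 and 13.4 FPKM with metformin (-0.20, limma-trend adjusted p = 0.289). Without control replicate 1, 8 of the 10 were lower and 1 higher, against 20.4% and 23.4% of all tested genes. Without control replicate 3 the counts were 1 and 1, against 8.31% and 12.4%. Without control replicate 2 or any 1 of the metformin replicates 0 were lower and 1 was higher. All tested genes then gave 3.9 to 5.84% lower and 7.4 to 9.9% higher.

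Of the textbook Myc targets outside the nucleolus, 5 of 12 tested genes rose (41.7%), against 13.2% of all tested genes. By limma-trend or voom 0 fell, against 9.28% and 9.75%, and the median log2 fold change was 0.38. None was lower at an unadjusted p under 0.05, against 16.5%. Odc1, the first enzyme of polyamine synthesis, rose from 55.4 ± 4.84 to 112 ± 3.74 FPKM (SD, n = 3 each), a ratio of 2.03 and a log2 fold change of 1.01 (limma-trend adjusted p = 0.000655). Ptma, which encodes a small nuclear protein, rose from 269 ± 7.92 to 428 ± 6.5 FPKM (SD, n = 3 each), a log2 fold change of 0.66 (limma-trend adjusted p = 0.0023). Cad, which starts pyrimidine synthesis, rose from 12.0 ± 1.5 to 18.9 ± 1.08 FPKM (SD, n = 3 each), a log2 fold change of 0.61 (limma-trend adjusted p = 0.00822). These 3 calls held in 6 of 6 fits without 1 sample. Cdk4 and Eif4a1 rose by 0.58 and 0.44 and passed in 5 of 6 and 3 of 6. Without control replicate 1, 10 of the 12 were higher and 1 was lower, against 23.4% and 20.4% of all tested genes. Without metformin replicate 1, 3 were higher and 0 lower, against 7.4% and 3.9%. The levels of Odc1, Ptma and Eif4a1 are uncertain because near-identical genes sum to 3.45, 67.2 and 54.5 FPKM, and Cdk4 overlaps Tspan31 (46.5 FPKM), with 641 bases of near-identical transcript. The 6 proliferation markers all rose, among them Mki67 by 2.45, Top2a by 2.61, Pcna by 1.19 and Mcm2 by 1.24 on the log2 scale, with a summed level of 63.5 to 84.9 FPKM in control and 238.1 to 243.4 FPKM with metformin. The part of proliferation in the levels of Myc, Ncl, Npm1 and these targets was not tested.

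Of the noncoding hosts of intronic snoRNAs, 3 of 7 tested genes fell, against 9.28% of all tested genes, and 4 were not called. By limma-trend or voom 0 rose, the median log2 fold change was -0.52, and the largest was 0.15. The metformin samples lay below all controls for 5, against 20.5% of all tested genes, and overlapped them for 2. Zfas1 was at 19.3, 22.8 and 20.6 FPKM in control and 8.57, 7.96 and 8.73 FPKM with metformin. Its mean fell from 20.9 ± 1.73 to 8.42 ± 0.406 FPKM (SD, n = 3 each), a ratio of 0.403 and a log2 fold change of -1.22 (limma-trend adjusted p = 0.000274). Snhg1 fell from 18.3 ± 1.07 to 12.4 ± 0.866 FPKM (SD, n = 3 each; -0.52, limma-trend adjusted p = 0.00794), and Snhg5 fell by 0.42 on the log2 scale (limma-trend adjusted p = 0.0271). Zfas1 and Snhg1 passed in 6 of 6 fits without 1 sample and Snhg5 in 2 of 6. Without control replicate 1, 5 of the 7 were lower, against 20.4% of all tested genes. The count was 2 without control replicate 2 or any 1 of the metformin replicates, against 3.9 to 5.84%. Zfas1 overlaps 5 genes, among them Znfx1 on the other strand and Snord12, and Snhg1 holds 8 small RNA genes. The level of Zfas1 is uncertain because 3 genes with near-identical stretches, of at most 201 bases, sum to 9.56 FPKM.

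**Figure D5:**
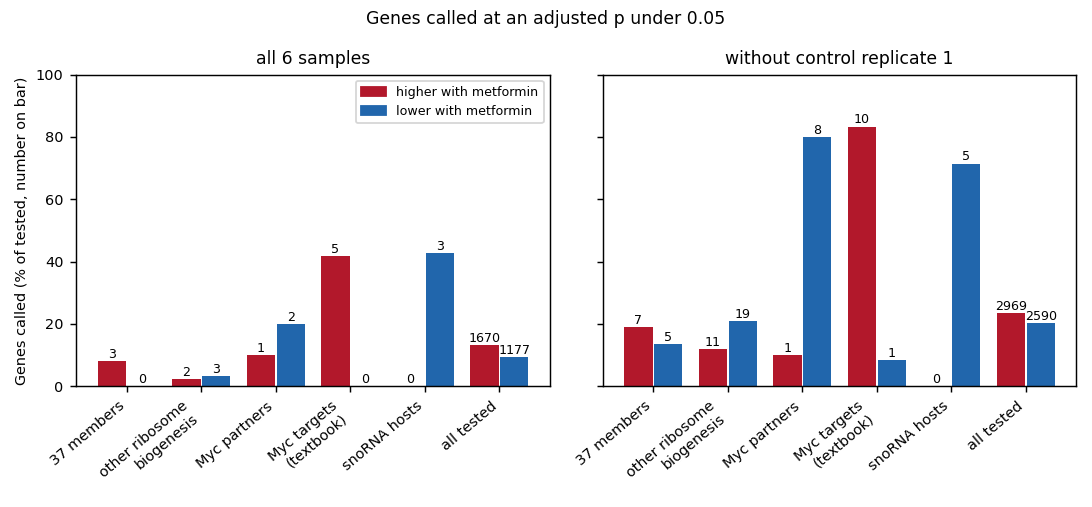
Share of tested genes called higher or lower with metformin at an adjusted p under 0.05 (bars, number above each), for the members, the other lists and all tested genes, with all 6 samples and without control replicate 1. Members move from 3 higher and 0 lower to 7 and 5, while snoRNA hosts have 0 higher in both panels.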

How the data were processed

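RNA sequencing (TruSeq libraries) covered 3 control and 3 metformin samples, grouped by their labels. The authors deposited FPKM, a unit inferred here because the table states none. Multiplied by the listed gene length, the values are whole reads for 100% of values (tolerance 0.001), scaled by library with median-of-ratios factors. The submitters' processing notes list Bowtie 0.12.2 and the builds mm8 and mm9 without a role, whereas the table's coordinates are those of GENCODE M21 (GRCm38) for 53499 of 54532 identifiers. The authors compared the groups with DESeq2. There were 0 columns of other samples.

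Tests used limma 3.58.1 (limma-trend) in R 4.3.3 on log2(FPKM + 1), which understates changes of low genes, over 12681 genes with a mean of at least 0.5 FPKM, with Benjamini-Hochberg adjustment and 0.05 as the threshold. The code was tested on simulated data. Intervals are 95%. Named in full were Myc, each called member and, in role groups with none, the member farthest from 0, with other members by value. Of the other lists, up to 3 called genes each way were named, and all called Myc partners and snoRNA hosts. Rrn3, Nop56, Fbl, Nop10, Nhp2, Dkc1, Nolc1, Gnl3 and Max were given by sample after their values were seen. The members and lists were chosen with earlier results of these data known. Alternatives were a pseudocount of 0.1, total-read scaling, no filter, at least 10 reads, a replicate block, a GC correction (spline, 5 df), voom on recovered reads, and leaving out each sample. Overlaps of genes come from the deposited coordinates, and copies from a search of GENCODE M21 transcripts with BLAST+ 2.17.0. The methods call the samples biological replicates.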

Additional observations from a re-analysis of the deposited data

How the results depend on the processing

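Of the 37 members, 23 were called in no fit. Counts of higher members (3) became 1 with the replicate block, 5 with GC correction and 0 to 7 without 1 sample. Lower members (0) became 1 with total-read scaling or voom, 4 with GC correction, 2 with block and GC correction, and 0 to 5 without 1 sample. The count of other ribosome biogenesis genes higher (2) became 1 with a pseudocount of 0.1, no filter or the block, 5 with GC correction alone or with the block, and 0 to 11 without 1 sample. The lower count (3) became 5 with total-read scaling, 12 with GC correction, 9 with block and GC correction, and 2 to 19 without 1 sample. Of all tested genes 16.3% were higher and 19.2% lower with GC correction. Without 1 sample these shares ran from 7.4 to 23.4% and from 3.9 to 20.4%. The members' median (0.081) ran from -0.011 to 0.13 and Myc's log2 fold change from 0.68 to 1.01 without 1 sample.

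The signs of 3 members reversed under other settings: Heatr1 (-0.013) and Ddx18 (-0.018) with GC correction, alone or with the block, and Bms1 with total-read scaling (-0.016) or GC correction, alone or with the block (-0.051). Without 1 sample, 17 reversed: Fbl (-0.0271 to 0.31), Gar1 (-0.17 to 0.75), Nhp2 (-0.0070 to 0.39), Nop10 (-0.36 to 0.22), Polr1a (-0.0028 to 0.12), Ubtf (-0.0609 to 0.29), Bop1 (-0.25 to 0.0515), Wdr12 (-0.0060 to 0.0804), Nop2 (-0.10 to 0.21), Nop16 (-0.0481 to 0.0668), Nob1 (-0.25 to 0.0389), Rrp1 (-0.01 to 0.16), Rrp9 (-0.0825 to 0.56), Rrs1 (-0.0816 to 0.24), Heatr1 (-0.0914 to 0.19), Bms1 (-0.0315 to 0.10) and Mybbp1a (-0.0632 to 0.0454). The cause was not tested. The median of all tested genes was -0.017 with total-read scaling and -0.039 with GC correction.

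Same-numbered samples deviated from their group means with correlations of -0.0533, 0.000265 and -0.0549. The labels do not say whether the numbers mark pairs, and with 3 samples per group these values cannot decide it. With the replicate block, Ncl (adjusted p = 0.054) and Npm1 (0.0598) lost the call and Myc (0.037) kept it, with 9.16% of all tested genes higher and 5.5% lower. In members at the lowest depth, 133 reads, counting error limits small differences.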
